A study of Mus musculus with 2 samples.

Results

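The Hoxd cluster is a row of homeobox genes on mouse chromosome 2, and this account covers CTCF binding in the cluster and in the gene-poor stretches, called deserts, on both sides of it. The cluster was taken as the span from the low-coordinate end of Evx2 to the high-coordinate end of Hoxd1, chr2:74652991-74765142 (mm10, GENCODE M21), which holds the 10 genes Evx2, Hoxd13, Hoxd12, Hoxd11, Hoxd10, Hoxd9, Hoxd8, Hoxd4, Hoxd3 and Hoxd1. The authors' optimal list holds peaks kept by IDR (irreproducible discovery rate), a threshold on how alike peaks rank between replicates, and each of its peaks is called a site here. All sites of that list with a summit in this span or within 800000 bp of it were taken, a window of 1.71 Mb. These were 36 of 64732 sites (0.0556%), of which 10 lay in the cluster, 13 in the centromeric desert at lower coordinates and 13 in the telomeric desert at higher coordinates.

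Lung tissue of B6NCrl mice at postnatal day 0, with the sex not collected, was profiled by ChIP-seq, which sequences the DNA that an antibody (here against CTCF) pulls down. There was 1 group, with 2 replicates and no other condition, tissue or genotype to compare with. The labels tie both replicates to 1 biosample of 1 donor, and their spread may therefore be technical only. Peak lists hold no expression, so the lung label could not be set against marker genes, and the read depth behind each signal is unknown.

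CTCF recognises a long, directional DNA motif through its zinc fingers and halts the cohesin complex as it extrudes chromatin loops; loop ends often hold CTCF motifs that face each other. Hoxd genes encode transcription factors that pattern the body axis and the limbs. In limb buds the centromeric desert is known to hold enhancers active in digits and the telomeric desert enhancers active in the forearm, and the cluster lies between both domains. Evx2, a homeobox gene beside Hoxd13, is transcribed away from the Hoxd genes. None of these contacts or enhancers was measured here.

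Sequence was read from the RefSeq copy of GRCm38.p6, the assembly that mm10 names. A core was a match to the 12-base CTCF core with at most 1 mismatch, on either strand, within 50 bp of a summit. The sequences shown are the cores of the cluster and of the 5 sites of highest mean rank in each desert, since their strand gives the direction in which each site points. Each is written 5′ to 3′ on the strand of its core, with the 12 core bases in capitals and 9 bases on either side. A plus-strand core points to higher coordinates, away from the centromere, and a minus-strand core points to lower coordinates. Sites are numbered 1 to 36 along the chromosome.
Site 4, centromeric desert, plus strand, chr2:73965781-73965810: cctctaccaCCAGCAGAGGGAgccctgaga
Site 6, centromeric desert, plus strand, chr2:74027912-74027941: gttggtggcCCAGTAGATGGCagcctgccc
Site 11, centromeric desert, plus strand, chr2:74300439-74300468: taacaatgaCCAGTAGGTGGCggtccagcc
Site 14, cluster, minus strand, chr2:74655518-74655547: ctcctgctgCCGCTAGGGGGCgccccgggg
Site 17, cluster, minus strand, chr2:74673169-74673198: gccaaacgcCCAGGAGATGGCgagcgtgct
Site 22, cluster, plus strand, chr2:74702386-74702415: cgcatttggCCACTAGAGAGCgctgttgct
Site 24, telomeric desert, minus strand, chr2:74964530-74964559: aaggagcctCCAGCAGGGGGCacccttttg
Site 25, telomeric desert, minus strand, chr2:75055356-75055385: tgtatttggCCACTAGGTGGCactgttggt
Site 28, telomeric desert, minus strand, chr2:75138051-75138080: cgggaatctCCAGCAGGGTGCccacgccgc
Site 29, telomeric desert, minus strand, chr2:75151164-75151193: gcttcttcaCCACCAGGTGGCgccctttgt
Site 28 had another minus-strand match with 1 mismatch, nearer its summit, within chr2:75138082-75138111. The core shown for it is the one at lower coordinates. Sites 18 and 23 of the cluster had 2 mismatches and so no core. A longer weight matrix of 24 positions, chosen after the data were seen and described with the strands, placed these matches there, with the bases aligned to the core in capitals.
Site 18, cluster, plus strand, chr2:74686471-74686500: cttctacagCCACACGAGGGCgcgctcatg
Site 23, cluster, plus strand, chr2:74715912-74715941: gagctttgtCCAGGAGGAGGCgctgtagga

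**Figure D1:**
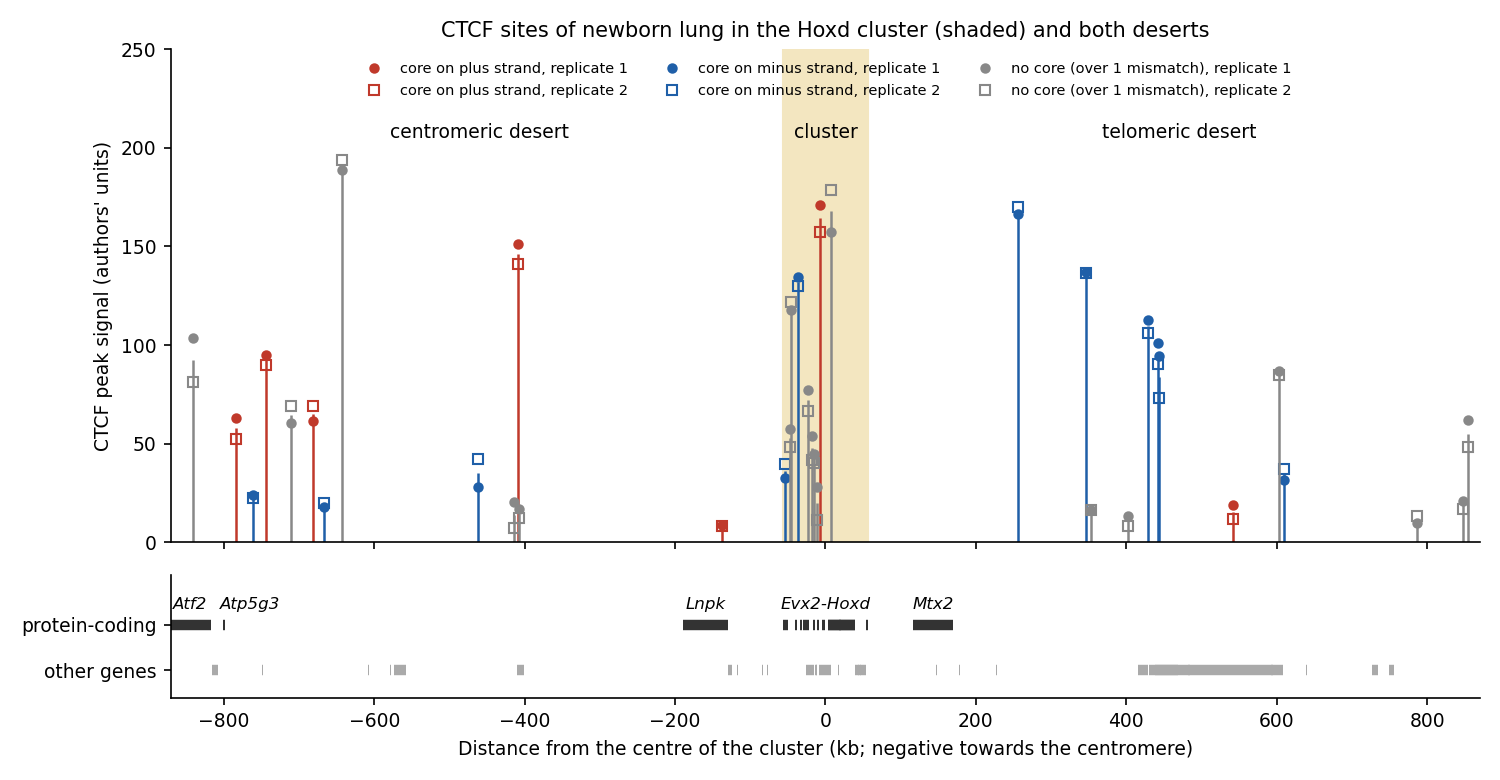
Signal of each of the 36 sites in replicate 1 (filled circles) and replicate 2 (open squares) against distance from the centre of the Hoxd cluster in kb, with a line to the mean of both, coloured by the strand of the core; genes are drawn below, and the cluster is shaded. The 10 cluster sites stand close together, the 5 strongest telomeric sites with a core have it on the minus strand, and each desert holds wide stretches without a site.

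CTCF sites were denser in the cluster than in either desert. The cluster held 10 sites in 112152 bp, or 89.2 sites per Mb (95% exact Poisson interval 42.8 to 164). Each desert held 13 sites, or 16.25 per Mb (8.65 to 27.8), against 24.6 per Mb over chromosomes 1 to 19 and X and 27.45 per Mb over chromosome 2, both inside the interval of the deserts. These intervals cover counting error of sites only, and no test between regions was run, since all regions come from the same libraries.

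Set against the rest of the genome, the cluster count was high and the desert counts were ordinary. The cluster held 10 sites, and 5.51% of 23470 stretches of the same length held as many or more, with a median of 1. Each desert held 13 sites, and 47.4% of 3282 stretches of 800000 bp held no more, with a median of 15. The deserts are named for their few genes. Their protein-coding genes were Atf2, Atp5g3 and Lnpk on the centromeric side and Mtx2 on the telomeric side, while the cluster had 11. Within the longest stretch of each flank with no protein-coding gene, the centromeric side had 18.1 sites per Mb and the telomeric side 18.9 per Mb.

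The other Hox clusters gave the nearest comparison, with flanks cut in the same way. The Hoxd, Hoxa, Hoxb and Hoxc clusters had 89.2, 73.7, 103 and 43.2 sites per Mb, with 10, 12, 18 and 5 sites, and the intervals of all 4 overlapped. The flanks differed more: those of Hoxd held 13 and 13 sites, those of Hoxa 30 and 27, those of Hoxb 61 and 69, and those of Hoxc 69 and 50. The intervals of both Hoxd flanks lay below those of the Hoxb and Hoxc flanks, and overlapped those of Hoxa. The protein-coding genes in these flanks numbered 3 and 1 for Hoxd, 5 and 3 for Hoxa, 17 and 17 for Hoxb, and 26 and 15 for Hoxc, so gene content moved with the count of sites, and its part in the difference was not tested. Cluster with flanks, the Hoxd locus had 36 sites, against 69 for Hoxa, 148 for Hoxb and 124 for Hoxc.

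**Figure D2:**
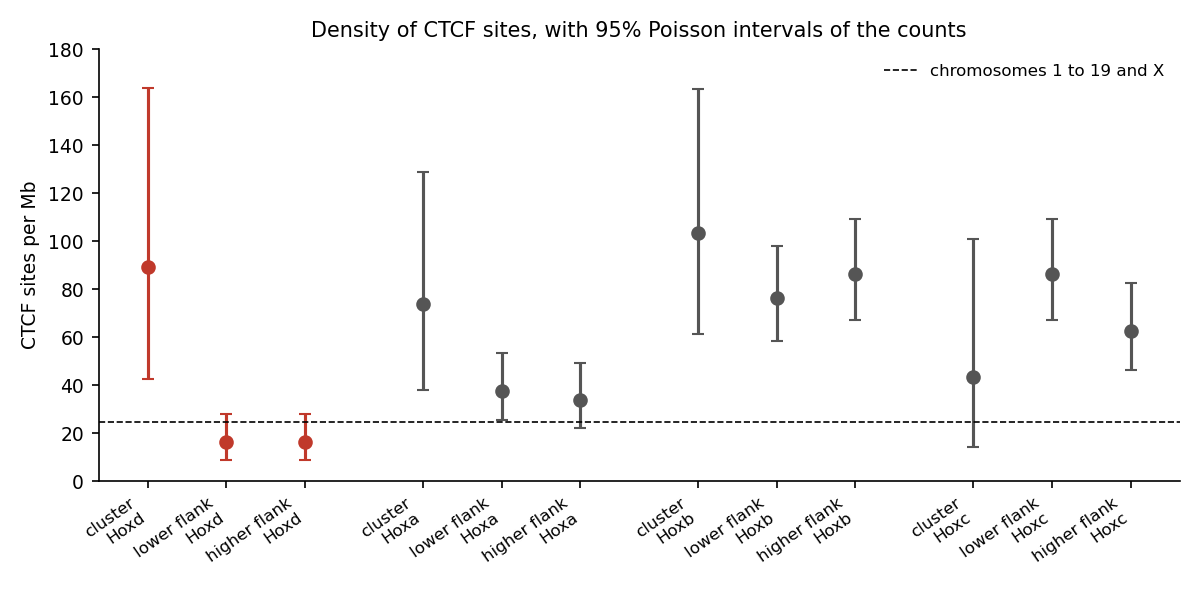
CTCF sites per Mb in each Hox cluster and in the 800 kb on either side (lower flank is the side of lower coordinates), with 95% exact Poisson intervals of the counts; the dashed line is the value over chromosomes 1 to 19 and X (24.6). Both Hoxd deserts lie at 16.25, below the dashed line, and the Hoxd cluster lies at 89.2.

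Signal is the value that the authors' peak caller gave each peak, and the sources used here do not state its scale or how it was computed. It is an average over the cells of the tissue, so binding in fewer cells and weaker binding per cell cannot be told apart. In each replicate, all 36 sites had a peak with its summit at most 100 bp away. The values of a site are given for replicate 1 first and then for replicate 2.

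The cluster sites fell into a stronger and a weaker set along the gene row. Site 14 (chr2:74655432-74655711, 32.7 and 40.0) lay in an untranslated region of Evx2. Site 15 (chr2:74661930-74662061, 57.3 and 48.1) and site 16 (chr2:74663665-74663868, 118 and 122) lay between Evx2 and Hoxd13. The interval between these genes thus held a pair of sites 1748 bp apart, the second of them well above the first in both replicates.

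Site 17 (chr2:74673061-74673270) lay between Hoxd13 and Hoxd12, genes known for the patterning of digits, and had signals of 134 and 130. Site 18 (chr2:74686397-74686537) lay in a Hoxd11 exon annotated as neither coding nor untranslated and had signals of 77.2 and 66.8. Hoxd11 is known for its part in forming the forearm.

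The lowest run of neighbouring cluster sites covered Hoxd10 and Hoxd9, though sites 19 and 20 were above the medians of all sites in both replicates. Hoxd10, known in the mouse for patterning lumbar motor neurons and the hindlimb, had site 19 (chr2:74691655-74691934, 53.7 and 41.7) at its promoter and site 20 (chr2:74694098-74694377, 45.0 and 40.0) in a coding exon. Site 21 (chr2:74697616-74697895) lay at the start of Hoxd9 and had signals of 28.0 and 11.5. Site 21 was the lowest of the cluster in both replicates, and its replicates were the farthest apart there, with a log2 ratio of replicate 1 over replicate 2 of 1.29.

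The cluster ended on the telomeric side with its 2 highest sites. Site 22 (chr2:74702287-74702508, 171 and 157) lay between Hoxd9 and Hoxd8, and site 23 (chr2:74715797-74716085, 157 and 178) lay in introns shared by Hoxd3 and Hoxd4 and in an exon of the non-coding gene Hoxd3os1. The replicates put them in opposite order, so which was stronger could not be told. By pooled signal they ranked 6644 and 6453 of 64732. No further site followed up to Hoxd1, so site 23 was the last of the cluster.

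**Figure D3:**
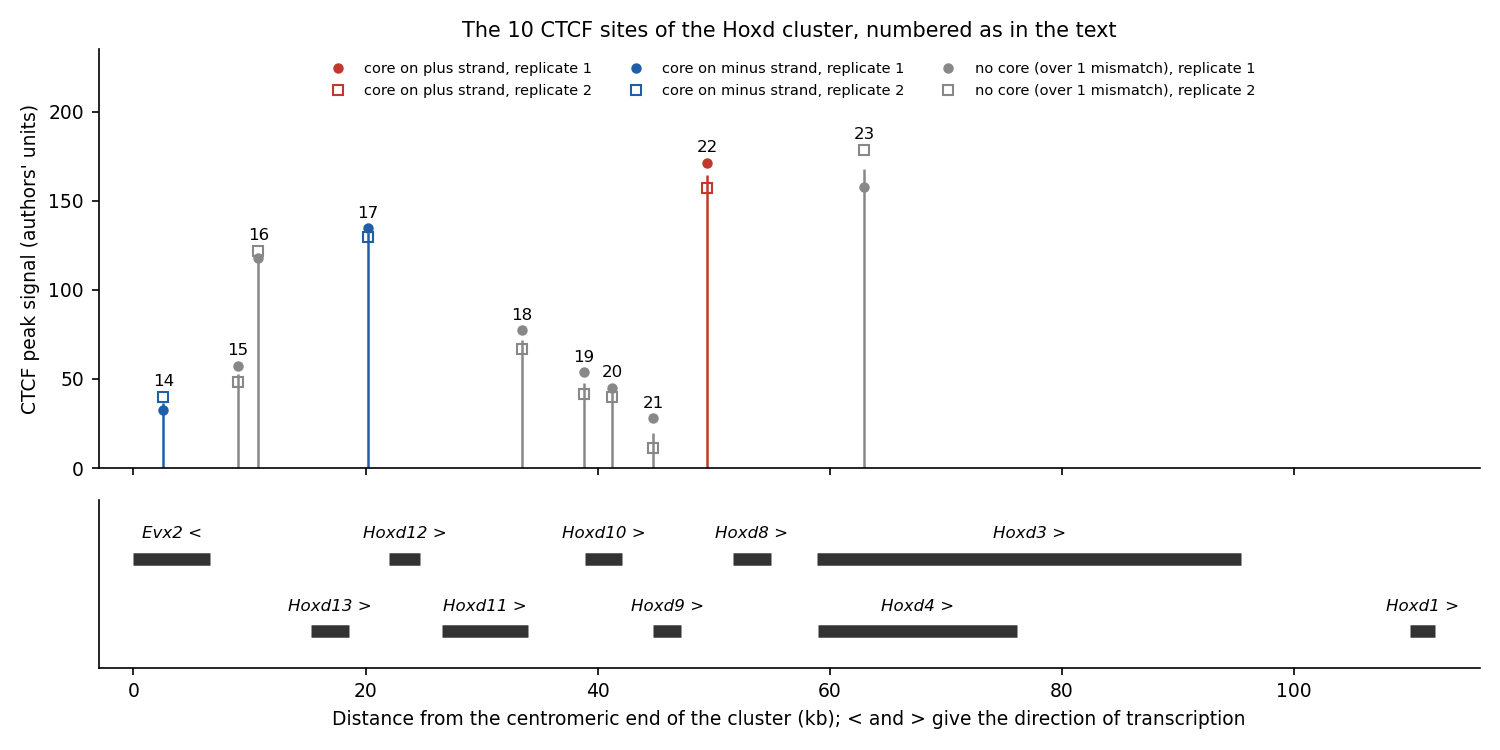
Signal of the 10 cluster sites, numbered as in the text, in replicate 1 (filled circles) and replicate 2 (open squares) against distance in kb from the centromeric end of the cluster, with the 10 genes below and their direction of transcription. Signals are between 28.0 and 171 in replicate 1 and between 11.5 and 178 in replicate 2, with sites 16, 17, 22 and 23 above the others in both and no site between site 23 and Hoxd1.

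Distances from the starts of the 10 genes to the nearest summit are given without a distance over all genes to set beside them. Starts here are those of protein-coding transcripts. A summit lay within 1000 bp of an annotated start at 2 of the 10 genes, Hoxd10 and Hoxd9, against 39.8% of 21646 protein-coding genes. With 10 genes this was not read as a difference, and no test was run. The nearest summit was 129 bp upstream for Hoxd10 and 29 bp downstream for Hoxd9. Neither of these sites had a core, and the Hoxd9 site was missing from the conservative IDR list, and without it the nearest summit was 3489 bp away.

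At the Evx2 end, the nearest summits were 2443 bp upstream of Evx2, 4562 bp upstream of Hoxd13 and 1851 bp upstream of Hoxd12. In the middle of the row they were 4161 bp downstream of the Hoxd11 start and 2210 bp upstream of Hoxd8. Hoxd4 and Hoxd3, which pattern the neck vertebrae, shared site 23 as their nearest, 6046 bp upstream of the Hoxd4 start and 4005 bp downstream of the Hoxd3 start. The Hoxd4 start used was 74721978, while the gene is annotated from 74711929, so site 23 lies inside Hoxd4. Hoxd1, known in mice for its role in pain-sensing neurons, stood apart, with its nearest summit 47048 bp upstream.

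The centromeric desert held the highest signal of the window. Site 8 (chr2:74066713-74066950) had signals of 189 and 194 and ranked 3494 of 64732 by pooled signal. Site 11 (chr2:74300340-74300577, 151 and 141) came next, in an exon of the non-coding gene 4930441J16Rik. Site 8 had no core, and site 11 had one with no mismatch.

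The next sites of that desert lay towards Atf2 and Atp5g3. Site 1 (chr2:73868207-73868372) had signals of 103 and 81.2 in an intron of Atf2, which encodes a stress-responsive transcription factor. Site 4 (chr2:73965690-73965868, 94.9 and 90.1) and site 6 (chr2:74027869-74027988, 61.6 and 69.0) were intergenic. The remaining 8 sites of the desert had signals between 8.91 and 62.9 in replicate 1 and between 7.40 and 69.0 in replicate 2. The nearest of them to the cluster, site 13 in an intron of Lnpk, was low, at 8.91 and 8.05.

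The telomeric desert began with its strongest site. Site 24 (chr2:74964430-74964670) had signals of 166 and 170, and site 25 (chr2:75055248-75055474) had 137 and 136. Both replicates gave the same order from site 24 through site 25 to site 28 (chr2:75137990-75138201, 113 and 106).

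Further out, sites 29 and 30 formed a pair 1525 bp apart inside overlapping non-coding genes, 2600014E21Rik and A330043C09Rik. Site 29 (chr2:75151091-75151266) had signals of 101 and 90.6, and site 30 (chr2:75152628-75152791) had 94.3 and 73.1. Site 32 (chr2:75312344-75312508) had 86.8 and 84.8 in an intron of 2600014E21Rik. The other 7 sites of the desert were below these in both replicates, with signals between 9.67 and 61.9 in replicate 1 and between 8.13 and 48.4 in replicate 2.

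The regions differed little in their median signal. On the log2 scale the medians in replicates 1 and 2 were 6.06 and 5.82 in the cluster, 5.92 and 5.71 in the centromeric desert and 5.95 and 5.60 in the telomeric desert, against 5.35 and 5.23 over all sites. The cluster exceeded the centromeric desert by 0.14 and 0.11 in replicates 1 and 2, and the telomeric desert by 0.10 and 0.23. The centromeric desert minus the telomeric desert was -0.03 and 0.12, so its direction turned with the replicate. The replicates read the same sites of 1 biosample, so their gaps of 0.025 and 0.124 say nothing of the spread between sites. Both differences were small beside the range of sites within any region, which ran from 28.0 to 171 in replicate 1 for the cluster, from 8.91 to 189 for the centromeric desert and from 9.67 to 166 for the telomeric desert. The medians rest on 10, 13 and 13 sites, and the differences, on average 0.123 and 0.165, moved with the choice of sites. The cluster minus the centromeric desert became 0.686 without replicate 2 and 0.349 with the conservative IDR list, and the cluster minus the telomeric desert 0.391 with that list. The cluster minus the telomeric desert became -0.05 with the 32366 sites of highest pooled signal and -0.64 with flanks of 400000 bp, and the cluster minus the centromeric desert became 2.18 with those flanks.

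Strong sites made up a larger share of the cluster than of either desert, on small counts that were not tested. In the window, 9 of 36 sites lay above the upper quartile of both replicates (108 in replicate 1 and 102 in replicate 2), against 23.7% of all sites. These were 4 of 10 in the cluster, 2 of 13 in the centromeric desert and 3 of 13 in the telomeric desert.

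The replicates were as close in the window as elsewhere. The median absolute log2 ratio of replicate 1 over replicate 2 was 0.185 in the window, against 0.208 over all sites, and 17 of the 36 sites exceeded that value over all sites. Of the 36 sites, 32 had a site of the authors' second IDR list, the conservative one, within 100 bp, against 87.4% of all sites. The 4 without one were site 10 (20.5 and 7.40) and site 21 (28.0 and 11.5), which had the widest replicate ratios of the window, and sites 27 (13.1 and 8.13) and 34 (9.67 and 13.2). Counted on its own, the conservative list held 9 sites in the cluster and 13 in each desert, so it was not simply the 36 sites less these 4. Its telomeric cores were 25% plus, against 14.3% in the optimal list.

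**Figure D4:**
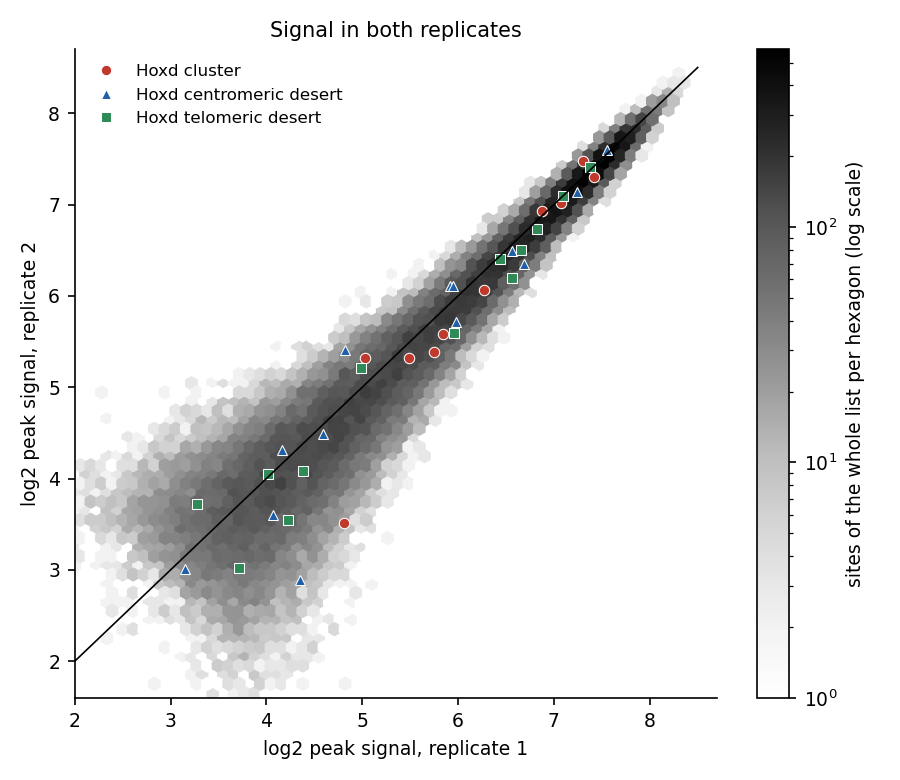
Log2 peak signal in replicate 2 against replicate 1 for the 36 Hoxd sites (coloured) and, as shaded hexagons on a log scale, all 64732 sites within the drawn range, with the line of equal signal. The Hoxd sites follow the spread of all sites, and the 2 farthest below the line are site 21 of the cluster and site 10 of the centromeric desert.

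Cores were fewer in the cluster than in the deserts, although the intervals overlapped. A core was found at 18 of the 36 sites, against 48.3% of all sites. The cluster had one at 3 of 10 sites (30%, 95% Wilson interval 10.8% to 60.3%), the centromeric desert at 8 of 13 (61.5%, 35.5% to 82.3%) and the telomeric desert at 7 of 13 (53.8%, 29.1% to 76.8%). Of the 4 strongest cluster sites, sites 17 and 22 had a core and sites 16 and 23 had none within 1 mismatch. In the Hoxa, Hoxb and Hoxc clusters a core was found at 4 of 12, 3 of 18 and 1 of 5 sites.

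The cores shown above pointed towards the cluster from both deserts. In the centromeric desert 5 cores were on the plus strand, towards the cluster, and 3 on the minus strand. In the telomeric desert 6 were on the minus strand, towards the cluster, and 1 on the plus strand. Over all sites the strands were even, with 15452 plus and 15461 minus.

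The sites that pointed away from the cluster were outside the 32366 sites of highest pooled signal, as were sites 13 and 33, which pointed towards it. The minus-strand cores of the centromeric desert, at sites 3, 7 and 9, had signals between 17.9 and 28.2 in replicate 1 and between 19.9 and 42.3 in replicate 2. The plus-strand core of the telomeric desert, at site 31, had 18.7 and 11.7. Site 13, with a plus-strand core towards the cluster, was weaker than all of these at 8.91 and 8.05, and site 9 at 28.2 and 42.3 was near the medians of all sites (40.8 and 37.5), so signal did not separate the sites by direction. Among the 32366 sites of highest pooled signal in the list, 4 cores were plus and 0 minus in the centromeric desert, and 0 were plus and 5 minus in the telomeric desert, against 9837 plus and 9917 minus over all of these 32366. These are counts of 4 and 5 neighbouring sites, sites 29 and 30 are 1525 bp apart, and no test was run.

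Inside the cluster a core was found at only 3 of 10 sites, and with the limits used these cores pointed outwards. From the centromeric side, site 14 in Evx2 and site 17 between Hoxd13 and Hoxd12 had minus-strand cores, which point to the centromeric desert. Site 22, between Hoxd9 and Hoxd8, had a plus-strand core, which points to the telomeric desert. The strand turned between site 17 and site 22, a stretch that holds Hoxd12, Hoxd11, Hoxd10 and Hoxd9 and 4 sites without a core. This turn was kept under some settings and lost under others. With at most 2 mismatches 66.7% of the cluster's cores were plus, and sites 14 and 17 stayed minus, so the strand still turned beyond site 17. Among the 32366 sites of highest pooled signal, which leave out site 14, 1 core was plus (site 22) and 1 minus (site 17). Within 25 bp of the summit only site 22 kept its core, so 100% were plus. The re-estimated matrix described next gave 3 plus and 0 minus among the 32366 sites, which leaves no turn.

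A planned weight matrix of 20 positions placed fewer sites than the core did. It matched 20% of cluster, 53.8% of centromeric and 46.2% of telomeric sites. Its matches were 1 plus and 1 minus in the cluster, at sites 22 and 14. They were 4 plus and 3 minus in the centromeric desert, and 1 plus and 5 minus in the telomeric desert. A re-estimated weight matrix placed more sites. It has 24 positions and was re-estimated from the 10000 strongest sites on the other chromosomes, was added after the data were seen, and matched 56.8% of all sites. It matched 4 of 10 cluster sites, 10 of 13 centromeric and 9 of 13 telomeric sites. In the cluster, sites 18, 22 and 23 were on the plus strand and site 14 on the minus strand, and site 17 fell below the limit, with its best match still on the minus strand. In the deserts, the matches were 5 plus and 5 minus on the centromeric side and 2 plus and 7 minus on the telomeric side. Among the same 32366 sites the counts were 3 plus and 0 minus in the cluster, 4 plus and 1 minus in the centromeric desert, and 0 plus and 6 minus in the telomeric desert, against 11867 plus and 12018 minus over all of them. The 5 plus against 3 minus cores of the centromeric desert were thus not kept as an excess with the re-estimated matrix. Nor were they with the highest peaks of replicate 1 alone (without replicate 2), where 50% of the cores were plus at 14 sites.

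**Figure D5:**
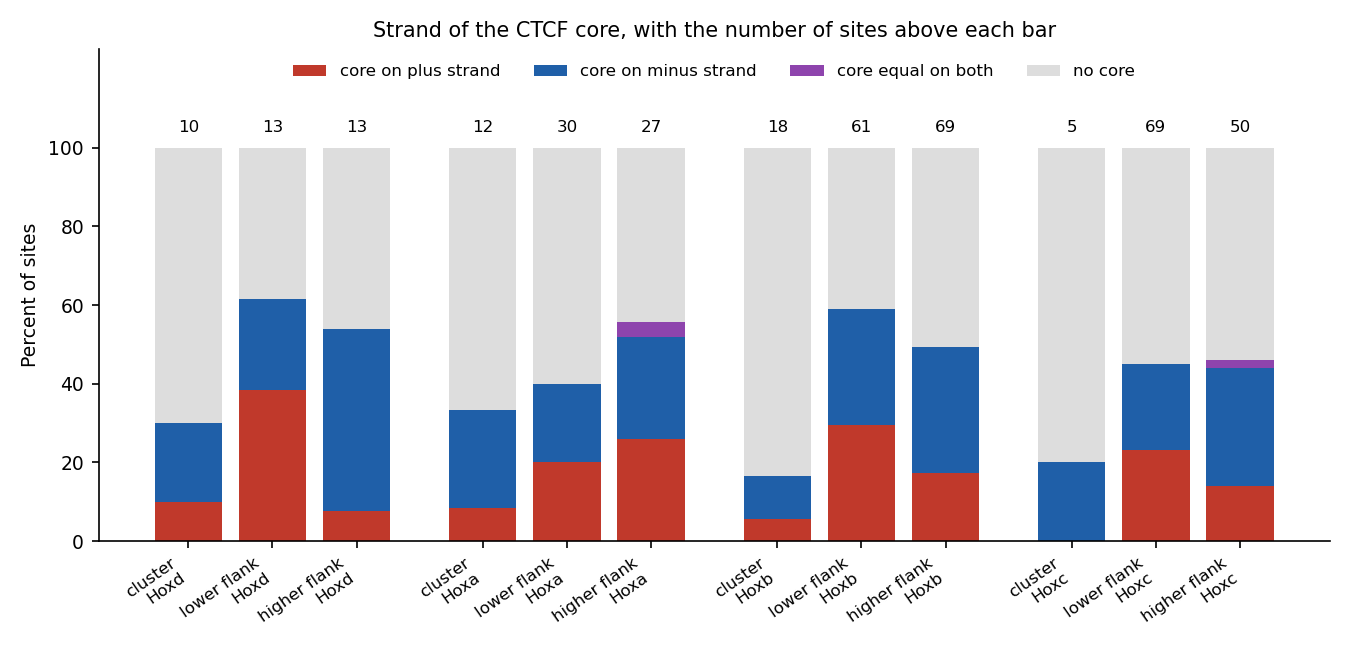
Percent of sites with a core on the plus strand, on the minus strand, equally on both, or without one, for each Hox cluster and both flanks, with the number of sites above each bar. Of the Hoxd sites, 5 of 13 on the lower (centromeric) side are plus and 6 of 13 on the higher (telomeric) side are minus, and cores are found at 3 of 10 cluster sites.

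The other Hox loci were counted in the same way. The Hoxd flanks had 5 plus and 3 minus cores on the side of lower coordinates and 1 plus and 6 minus on the side of higher coordinates. The Hoxa flanks had 6 and 6, then 7 and 7; the Hoxb flanks 18 and 18, then 12 and 22; and the Hoxc flanks 16 and 15, then 7 and 15. The side of higher coordinates had more minus than plus cores at Hoxd, Hoxb and Hoxc, and equal numbers at Hoxa. These counts were not tested against each other.

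Long stretches without sites lay in both deserts. On the centromeric side, site 13 in Lnpk was 84000 bp from site 14, the first of the cluster, and beyond it sites 12 and 13 were 270311 bp apart, a distance that 1.96% of all gaps between neighbouring sites exceeded. Sites 23 and 24, the last of the cluster and the first of the telomeric desert, were 248610 bp apart on the telomeric side, which 2.19% exceeded, and this gap holds Hoxd1, the non-coding gene Haglr and Mtx2, which encodes a mitochondrial outer membrane protein. Gaps over 200000 bp made up 2 of the 35 gaps in the window, against 2.95% of all gaps. The next longest were 180829 bp between sites 8 and 9 and 177177 bp between sites 33 and 34. Within regions, the median distance between neighbouring sites was 5311 bp in the cluster, 26677.5 bp in the centromeric desert and 37986 bp in the telomeric desert.

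The 2 longest stretches held weaker peaks of the pooled list outside both IDR lists. There were 21 between sites 12 and 13 with a highest pooled signal of 16.7, and 25 between sites 23 and 24 with a highest pooled signal of 14.9. A core was found at 2 of the 21 and 0 of the 25. Over chromosomes 1 to 19 and X it was found at 7.99% of 178996 peaks outside both IDR lists and over 2000 bp from a listed site. These small counts were not read as a difference.

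The cluster was cut as a span of genes and the deserts hold few. The places of the sites relative to genes therefore follow in part from that choice. No shares of these places over all sites were computed. In the cluster, 2 sites were at promoters, 1 in a coding exon, 1 in an untranslated region, 2 in other exons and 4 between genes. In the centromeric desert, 9 were intergenic, 3 in introns and 1 in an exon of a non-coding gene, and in the telomeric desert 9 were intergenic and 4 in introns. The median GC content of the 101 bp around the summit was 60.9% in the cluster, 49.5% in the centromeric desert and 52.5% in the telomeric desert, against 52.5% over all sites. Summits in sequence marked as repeats (soft-masked) were 0 in the cluster, 1 in the centromeric desert and 3 in the telomeric desert, against 19.5% of all sites.

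The edges of the window set what was counted. The last sites inside the telomeric edge were site 35 (20.9 and 17.0) and site 36 (61.9 and 48.4), and the first outside lay 23.6 kb beyond it (167 and 170) and 25.3 kb beyond it (212 and 216, minus-strand core). On the centromeric side the first site inside was site 1 (103 and 81.2), and the first outside lay 60.6 kb beyond (60.2 and 61.6, plus-strand core) and then 107 kb beyond (154 and 134, minus-strand core). The site 25.3 kb beyond the telomeric edge was above all 36 sites of the window in both replicates.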

How the data were processed

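The peak signal was deposited by the authors for each replicate, for the pooled reads and for 2 lists thresholded by IDR (irreproducible discovery rate), on mm10 per the labels. Per the deposited file descriptions, a replicate's list was derived from its alignments and from 1 other file of unstated role. The sources used here do not give the aligner, the peak caller, the scale of the signal or the IDR threshold.

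Sites of the optimal list on chromosomes 1 to 19 and X were used. A replicate's signal was that of its highest peak with a summit within 100 bp. Python 3.11.15, numpy 2.4.6, pandas 2.3.3, scipy 1.17.1 and matplotlib 3.10.9 were used. Promoters reach 1000 bp from the start of a protein-coding transcript. Exact Poisson intervals of counts and Wilson intervals of shares (95%) reflect counting error alone. The motif search was tested on simulated data. With 1 group and 2 replicates no test was run.

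The members and lists were chosen with earlier results of these data known. All 10 genes, all cluster sites and the 5 desert sites of highest mean rank per side were described by rule. Other genes are named for their position, and sites 3, 7, 9, 10, 12, 13, 27, 30, 31 and 33 to 36 after their values were seen. Alternatives were each replicate alone, the conservative list, the 32366 sites with the highest pooled signal, and other flanks, distances and mismatch limits. A weight matrix of 20 positions was also planned, and the re-estimated matrix was added later.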

Additional observations from a re-analysis of the deposited data

Results flagged for a closer look

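The core also occurred at peaks outside the comparisons, over the whole window at a share near that of such peaks over all chromosomes used. Of 143 peaks of the pooled list in the Hoxd window that were in neither IDR list and over 2000 bp from a listed site, 14 had a core within 50 bp of the summit (9.79%, 95% Wilson interval 5.92% to 15.8%). In windows 1000 bp to either side of these peaks, 0 of 286 had one, against 0.779% of 357992 such windows over chromosomes 1 to 19 and X. The 14 were 10 of 58 peaks in the centromeric desert (17.2%, 9.64% to 28.9%) and 4 of 74 in the telomeric desert (5.41%, 2.12% to 13.1%). The cluster had 0 of 11, against 7.99% of 178996 such peaks over chromosomes 1 to 19 and X. The centromeric interval lay above that share and the telomeric one included it, and no test was run. One of them, at chr2:74547717-74547996 in a coding exon of Lnpk, had a core with no mismatch and a pooled signal of 16.7, with a peak in replicate 2 (13.5) and none matched in replicate 1.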

How the results depend on the processing

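No paired analysis was possible because there is 1 group. The values that answer the comparisons were recomputed under the alternatives. Of these, 108 stayed within 1.5 times the reported count, the 95% interval of a share or the spread between replicates. Another 28 moved, and 2 differences in median signal turned direction. A turn in the majority strand was not counted as such. The cluster's plus share of 33.3% became 66.7% with at most 2 mismatches and 75% with the re-estimated matrix, both among the 108. Part of the 108 could not change. The cluster span is the same with other flanks, dropping sites within 500 bp of a stronger one removed none, and sites per Mb is made from the count. With the conservative list the log2 difference in median signal was 0.349 for the cluster minus the centromeric desert and 0.391 for the cluster minus the telomeric desert, against 0.123 and 0.165 as reported. With the 32366 sites of highest pooled signal the cluster had 8 sites and each desert had 7 (8.75 per Mb). Among them the plus strand took 100% of centromeric and 0% of telomeric cores, and the differences were 0.0796 and -0.0457. With flanks of 400000 bp the centromeric side had 4 sites (10 per Mb) with 100% of cores on the plus strand, the telomeric side 7 sites with 0%, and the differences were 2.18 and -0.641. With each replicate alone the cluster minus the centromeric desert was between 0.110 and 0.686, the cluster minus the telomeric desert between 0.103 and 0.227, the centromeric count between 13 and 14 sites, and the share of centromeric cores on the plus strand between 50% and 62.5%. With no mismatch a core was left at 0% of cluster and 15.4% of centromeric sites, with 100% of centromeric and 0% of telomeric cores on the plus strand, and 2 mismatches gave 92.3% of centromeric and 84.6% of telomeric sites. Within 25 bp of the summit 10% of cluster sites had a core, 100% of them plus. With the re-estimated matrix in the same 32366 sites, 85.7% of telomeric sites matched, and the plus strand took 100% of cluster and 0% of telomeric matches. Replicate peaks within 50 bp gave 0.0166 for the cluster minus the telomeric desert. The nearest site to Hoxd9 was 3489 bp away with the conservative list and with those 32366 sites. The 32366 sites and the flanks of 400000 bp leave fewer sites in each desert by construction, the limits on mismatches and distance change which cores count, and for the other settings the cause was not tested. The unknown read depth and 2 replicates limit any reading of sites with low signal.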

Other observations

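Sites 3, 13 and 31, all weak sites of the deserts, carried the same 12 core bases, shown in capitals with their flanks.
Site 3, centromeric desert, minus strand, chr2:73947554-73947583: acctgcatgCCAGAAGAGGGCatcatactg
Site 13, centromeric desert, plus strand, chr2:74571531-74571560: ccaaagaggCCAGAAGAGGGCactggatct
Site 31, telomeric desert, plus strand, chr2:75250689-75250718: cctcagaggCCAGAAGAGGGCactggatcc
Sites 13 and 31 were identical at 27 of these 30 bases. Site 3 had signals of 24.1 and 22.4 in replicates 1 and 2, site 13 had 8.91 and 8.05, and site 31 had 18.7 and 11.7. These 12 bases were soft-masked as repeat sequence at all 3 sites. Over the genome the same 12 bases were found at 6034 sites (9.32% of all sites and 19.3% of sites with a core), and 99.6% of them were soft-masked. The median signal of those sites was 27.1 in replicate 1 and 24.3 in replicate 2, against 68.3 and 63.7 over all sites with a core.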
